A study of Homo sapiens with 36 samples.

Results

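Epithelial cells secrete proteins that kill microbes, withhold iron from them, block proteases or bind microbial surfaces. Of these defence and acute phase proteins, 8 genes were followed in A549, an established human lung adenocarcinoma line, during and after long exposure to the cytokine IL-1β. They were DEFB1, LCN2, SLPI, PI3, SAA1, SAA2, PTX3 and ORM1, found by Ensembl identifier as 8 of the 63677 genes in each count table. They were chosen by their levels with IL-1β against control at the same time points, so those levels are given as a description, with no p-value. Cells grown in RPMI with 10% serum received IL-1β at 1 ng/ml for 6, 15 or 21 days, or were exposed for 21 days and then kept without it for 6, 15 or 30 days. Untreated A549 cells were collected beside each of these 6 time points. Each of the 12 groups had 3 libraries, labelled as biological replicates, which gave 36 libraries of 1 cell line.

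These proteins differ in how their genes are controlled. Beta-defensin 1, the product of DEFB1, is made by most epithelia without any stimulus, whereas LCN2, PI3 and other beta-defensins are classic targets of NF-κB, which IL-1β activates. The acute phase proteins rise in the blood in infection or injury. The liver makes most of them, under IL-6 and IL-1, but epithelial cells can make SAA1 and SAA2, and many cell types make PTX3.

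RefSeq's table of upstream sequences held LCN2, PTX3 and ORM1, 3 of the 8 genes. The 250 bases before each start are shown for these 3 because the table held them, not because of their response to IL-1β. With no sequence for the other genes, the matches cannot be set against the response. Capitals mark matches, on either strand, to the κB consensus, the sequence that NF-κB binds, in LCN2 and PTX3, and to the C/EBP consensus TTNNGNAAT in ORM1. The builds and positions are GRCh38.p14, chr9:128149203-128149452 for LCN2, chr3:157436600-157436849 for PTX3 and chr9:114322848-114323097 for ORM1, all on the plus strand.
LCN2: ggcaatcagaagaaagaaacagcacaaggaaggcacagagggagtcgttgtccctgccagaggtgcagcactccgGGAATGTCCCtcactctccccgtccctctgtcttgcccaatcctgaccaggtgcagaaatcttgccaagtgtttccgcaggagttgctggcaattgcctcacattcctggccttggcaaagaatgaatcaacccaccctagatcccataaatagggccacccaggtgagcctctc
PTX3: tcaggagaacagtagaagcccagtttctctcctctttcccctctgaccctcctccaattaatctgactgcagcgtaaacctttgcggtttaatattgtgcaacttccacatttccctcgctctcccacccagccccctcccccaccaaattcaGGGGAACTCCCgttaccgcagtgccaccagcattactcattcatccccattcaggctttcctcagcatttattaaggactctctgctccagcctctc
ORM1: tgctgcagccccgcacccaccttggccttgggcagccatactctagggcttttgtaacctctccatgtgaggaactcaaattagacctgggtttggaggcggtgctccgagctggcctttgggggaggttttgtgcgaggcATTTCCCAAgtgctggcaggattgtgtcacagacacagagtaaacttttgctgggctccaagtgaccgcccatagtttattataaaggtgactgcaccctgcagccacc
The κB match of LCN2 lay 175 to 166 bases before the start on the minus strand, and overlapping κB matches of PTX3 covered 97 to 87 bases before it. Over all 35116 upstream windows of this length, 9.96% held a κB match and 9.85% a C/EBP match. These letters describe the windows and do not show that a factor binds there.

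On genes, 9116032 to 23570026 reads per library were counted. Levels are given in CPM, the counts of a gene scaled to a fixed library size after TMM correction, and a gene with 3 or fewer counts in each library of a group is called at the floor, which corresponds to 0.119 to 0.387 CPM in a single library. Such floors cover counting error only. In 11 libraries, of which 6 were controls and 8 were replicate 2, 11.8% to 24.6% of the counts were mitochondrial, against 5.61% to 7.75% in the other 25, and the fits were repeated after leaving these out. The epithelial keratins KRT8 and KRT18, the adhesion gene CDH1 and the reductases AKR1B10 and AKR1C1 were abundant. EPCAM, another epithelial marker, was low, at a median of 1.03 CPM in controls and 0.531 CPM over the libraries of exposed and withdrawn cells. KRT19, SFTPC and NKX2-1 had at most 5 counts in any library, so SFTPC and NKX2-1, markers of type II pneumocytes, were at or near 0. Of the defining markers of other cells, PTPRC and ALB had at most 3 counts in any library, and CD3E and MPO had 0. ITGAM, a myeloid integrin, was at a median of 7.52 CPM in controls and 7.41 CPM over the libraries of exposed and withdrawn cells.

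A log2 fold change with its standard error (SE) compares IL-1β with the control of the same time point. The SE is an approximation, the size of the log2 fold change divided by the square root of the test's F statistic. A gene was past both thresholds where edgeR's quasi-likelihood test gave it an adjusted p under 0.05 and its fold change was over 2. Of the 8 genes, 6 had enough counts for this test, and PI3 and ORM1 did not. At day 6, 4 of the 6 were past both thresholds as higher and 1 as lower, where 1.52% and 1.25% of all 19180 tested genes were. At day 15 the counts were 4 and 2, against 1.94% and 2.3% of all genes, and at day 21 they were 4 and 1, against 2.19% and 2.06%. After withdrawal, 1 was higher and 1 lower at day 6 (1.08% and 0.725% of all genes), 0 and 1 at day 15 (0.594% and 0.36%), and 0 and 1 at day 30 (0.433% and 0.464%). As these contrasts chose the genes, their counts say nothing beyond the choice.

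Per exon length, DEFB1 was the most abundant of the 8 in untreated cells. Its median over 18 control libraries was 59.5 CPM per kb of exon, against 8.93 for SLPI, 0.561 for LCN2, and under 0.1 for SAA1, SAA2 and PTX3. The gene (ENSG00000164825) lies on the minus strand at chr8:6728114-6735458 in GRCh37, and 12.5% of its exonic bases are overlapped on the opposite strand by GS1-24F4.2. Since the strand setting of the counting is not given in the sources used here, reads of the 2 genes in that stretch cannot be told apart. Beta-defensin 1 is a small cationic peptide that damages bacterial membranes.

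DEFB1 fell with IL-1β, further at days 15 and 21 than at day 6, and was still low 30 days after withdrawal. At day 6 the controls had 37.2, 21.6 and 37.2 CPM and the exposed cells 5.59, 4.82 and 2.92 CPM. At day 15 the controls had 23.1, 26.8 and 29.7 CPM and the exposed cells 0.501, 0.697 and 0.103 CPM. At day 21 the controls had 16.6, 19.1 and 17.1 CPM, and the exposed cells 0.217, 0 and 0.205 CPM, from 4, 0 and 5 reads. The groups did not overlap at any of these times, and the exposed mean went from 13.9% of the control mean at day 6 to 1.63% at day 15 and 0.8% at day 21.

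The loss outlasted the cytokine. At day 6 after withdrawal, DEFB1 had 0.0546, 0 and 0.811 CPM in the withdrawn cells, from 1, 0 and 14 reads, and 12.2, 9.59 and 31.2 CPM in the controls. At day 15 after withdrawal it had 1.09, 1.24 and 3.03 CPM against 23.6, 11.3 and 19.4 CPM. At day 30 it had 3.19, 3.9 and 5.85 CPM against 29.6, 12 and 39.4 CPM. Every withdrawn library lay below every control of its time point, and the mean rose from 1.63% of control at day 6 to 9.85% at day 15 and 16.0% at day 30 after withdrawal.

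For DEFB1 the log2 fold changes were -2.86 (SE 0.54), -5.78 (SE 0.67) and -6.74 (SE 0.74) at days 6, 15 and 21. They were -5.73 (SE 0.70), -3.31 (SE 0.57) and -2.65 (SE 0.54) at days 6, 15 and 30 after withdrawal. The response at day 21 was below that at day 6 by a log2 difference of -3.88 (SE 0.92), and by day 30 after withdrawal it had come back by 4.10 (SE 0.91). Both differences use the day 21 value, which rests on 4, 0 and 5 reads in the exposed libraries, so their size is uncertain. All 6 log2 fold changes were past both thresholds, but the calls at day 6 and at days 15 and 30 after withdrawal were lost without replicate 1, at -2.91, -2.84 and -2.41. Fitting each time point on its own lost the calls at days 6, 15 and 30 after withdrawal, at -5.74, -3.29 and -2.66. When a replicate block was added to these separate fits, only the call at day 30 after withdrawal was lost, at -2.56. Without replicate 3, the value at day 6 after withdrawal was -7.92. Without the libraries of high mitochondrial share the 6 values ran from -6.32 to -2.89, so the loss was about as large. In that fit the only control left was replicate 3 at day 6 after withdrawal and replicate 1 at day 15 after it. Control libraries of high mitochondrial share had 9.59 to 21.6 CPM (median 12.1, n = 6) and the others 16.6 to 39.4 CPM (median 28.2, n = 12), and the part of this share in the control levels was not tested.

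**Figure D1:**
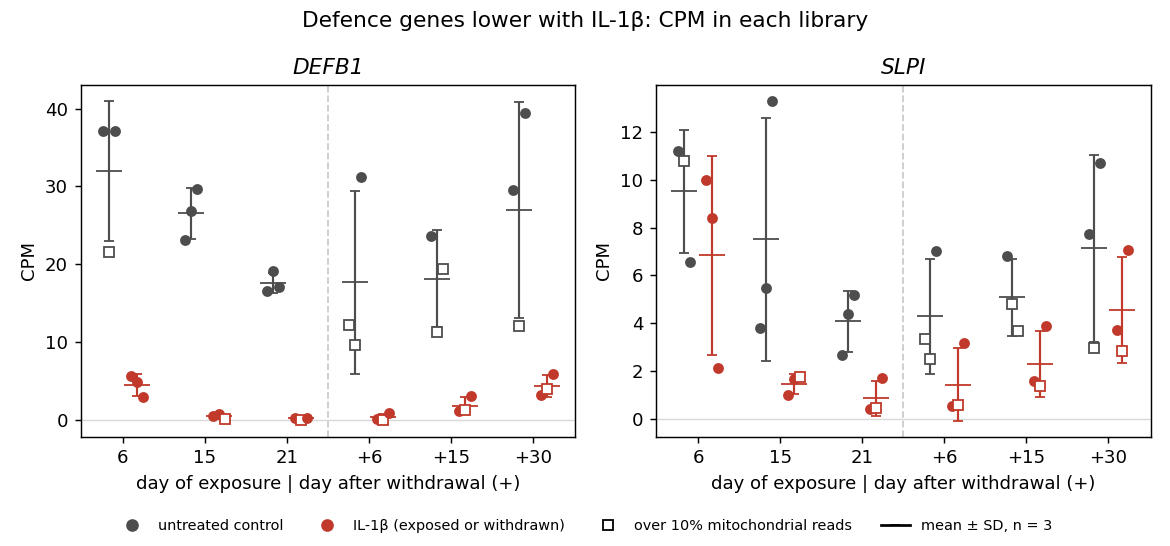
CPM of DEFB1 (left) and SLPI (right) in each of the 36 libraries, by day of exposure and day after withdrawal; grey is untreated, red is IL-1β, open squares are libraries with over 10% mitochondrial reads, and bars are the mean ± SD of 3 libraries. DEFB1 was at 9.59 to 39.4 CPM in controls and at most 5.85 CPM in any red library, whereas the SLPI groups overlapped at day 6 and at days 6, 15 and 30 after withdrawal.

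SLPI, the secretory leukocyte protease inhibitor that protects airway tissue from neutrophil elastase, was lower with IL-1β in part of the time course. The gene (ENSG00000124107) lies on the minus strand at chr20:43880880-43883205 in GRCh37. At day 6 the exposed cells had 10.0, 8.4 and 2.14 CPM and the controls 11.2, 10.8 and 6.56 CPM, which overlap. At day 15 the exposed cells had 1.0, 1.68 and 1.76 CPM against 3.79, 5.47 and 13.3 CPM, and at day 21 they had 0.434, 0.449 and 1.72 CPM against 2.68, 4.4 and 5.18 CPM. These 2 time points did not overlap.

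At day 15 the log2 fold change of SLPI was -2.37 (SE 0.68), past both thresholds, and the call was lost without replicate 1 (-2.43) or replicate 2 (-2.68). At day 21 it was -2.15 (SE 0.69), not past both, and it was past both with the replicate number as a block (-2.28), with the mitochondrial share as a covariate, with DESeq2's Wald test and without replicate 3. After withdrawal it was -1.55, -1.14 and -0.67 at days 6, 15 and 30, with SE of 0.68, 0.65 and 0.62, and none was past both. Without replicate 3 the values of days 6 and 15 after withdrawal were -2.36 and -1.96, each past both, and without replicate 1 they were -1.28 and -0.68. At day 6 of exposure it was -0.48 (SE 0.61). On day 30 after withdrawal the 2.86 to 7.06 CPM of the withdrawn cells lay within the 2.96 to 10.7 CPM of the controls, apart from the library at 2.86 CPM.

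LCN2 encodes lipocalin 2, which captures the siderophores bacteria use to collect iron. The gene (ENSG00000148346) lies on the plus strand at chr9:130911350-130915732 in GRCh37. With IL-1β it rose from a low level in controls, most at day 6, and it was back at or below control once IL-1β was gone. At day 6 the exposed cells had 39.1, 36.5 and 16.3 CPM and the controls 1.83, 2.09 and 1.24 CPM. At day 15 they had 9.26, 10.7 and 9.41 CPM against 0.532, 0.325 and 1.93 CPM, and at day 21 6.25, 6.66 and 10.1 CPM against 0.627, 0.905 and 0.956 CPM. The groups did not overlap at these 3 time points.

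The log2 fold changes of LCN2 were 4.16, 3.37 and 3.19 at days 6, 15 and 21, each with an SE of 0.52 and past both thresholds. The value at day 15 was 4.53 without replicate 3, whose control library held 39 of the 54 control reads. After withdrawal they were -1.71 (SE 0.67), -0.79 (SE 0.62) and 0.02 (SE 0.61) at days 6, 15 and 30, none past both. Without replicate 3, which held 13 of the 14 reads of LCN2 in withdrawn cells at day 6, that value was -4.25 and past both. At that time LCN2 had 1, 0 and 13 reads in the withdrawn libraries, at 0.0546, 0 and 0.753 CPM, against 1.16, 0.605 and 1.25 CPM in the controls, which overlap. At day 15 the withdrawn cells had 0.577, 0.655 and 0.466 CPM and the controls 1.23, 0.816 and 0.813 CPM, from 8 to 19 reads a library, so each withdrawn library was below each control. At day 30 they overlapped, at 0.475, 0.715 and 0.935 CPM against 0.807, 0.257 and 0.885 CPM.

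SAA1 and SAA2 encode the serum amyloid A proteins, which ride on high density lipoprotein and are among the steepest risers of the acute phase. They lie 17591 bases apart on chromosome 11, SAA1 (ENSG00000173432) at chr11:18287807-18291524 on the plus strand and SAA2 (ENSG00000134339) at chr11:18260770-18270215 on the minus strand, in GRCh37. Their transcripts are much alike. Of the stretches of 50 bases in SAA1 transcripts, 34.2% also occur in SAA2, so how the counting split reads between them is uncertain. SAA1 took 39.0% to 70.4% of their joint reads in the 9 exposed libraries (median 56.8%).

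SAA1 was at or near the floor in every control group and rose with IL-1β. The exposed cells had 17.8, 17.0 and 6.28 CPM at day 6, 7.36, 8.13 and 6.62 CPM at day 15, and 5.0, 3.74 and 9.4 CPM at day 21, while no control library was above 0.228 CPM (4 reads). Summed over libraries, 619 reads stood against 4 at day 6, a ratio of 139 (95% counting interval 54.0 to 511). The ratio was 59.5 (28.6 to 149) at day 15 and 48.9 (24.6 to 114) at day 21. The fitted log2 fold changes were 7.09 (SE 0.72), 5.79 (SE 0.66) and 5.41 (SE 0.65), all past both thresholds, and with controls so near 0 they depend on the prior count.

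At day 6 after withdrawal SAA1 had 11, 2 and 14 reads, or 0.601, 0.232 and 0.811 CPM, against 0 reads in each control. The withdrawn mean was 2.12 times a floor of 3 counts per library, which the library of 2 reads did not reach, so this is no bound. SAA1 was past both thresholds there, at a fitted 6.27 (SE 1.44) that is no bound either, but the call was lost on leaving out any 1 replicate. Leaving out the libraries of high mitochondrial share gave 6.72, with replicate 3 as the only control left. At days 15 and 30 after withdrawal the ratios of summed reads were 2.48 (0.889 to 8.56) and 2.49 (0.739 to 10.7), and the groups overlapped. At day 15, 15 of the 18 reads were in replicate 3, and without it the log2 fold change turned from 1.2 to -0.59. At day 30 it went from 1.26 to 2.36 without replicate 1.

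SAA2 rose as well. The exposed cells had 13.5, 13.0 and 5.11 CPM at day 6, 4.86, 3.43 and 10.3 CPM at day 15, and 3.58, 3.14 and 5.58 CPM at day 21, and no control library was above 0.643 CPM. The log2 fold changes were 6.19, 4.77 and 4.67, all past both thresholds, and that of day 6 was 7.75 without replicate 1, whose control library held 5 of the 6 control reads. Without replicate 3, those of days 15 and 21 were 3.99 and 3.98. The ratio of summed reads was 71.7 (95% counting interval 32.7 to 196) at day 6, 25.3 (14.2 to 49.6) at day 15 and 28.6 (14.8 to 63.3) at day 21. After withdrawal it was 2.07 (0.793 to 5.99), 2.07 (0.848 to 5.76) and 0.737 (0.326 to 1.63) at days 6, 15 and 30, intervals that all hold 1, and no value was past both thresholds. The log2 fold change of day 30 turned from -0.49 to 0.11 without replicate 2.

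PTX3, the long pentraxin, which binds microbes and complement, stayed low throughout and had its highest levels at day 21. The gene (ENSG00000163661) lies on the plus strand at chr3:157154639-157161422 in GRCh37, with 3.8% of its exonic bases overlapped on the opposite strand by VEPH1. All 6 control groups were at the floor, with at most 3 reads a library. The exposed cells had 0.552, 0.512 and 0.682 CPM at day 6, 0.901, 0.697 and 1.24 CPM at day 15, and 1.47, 1.2 and 1.56 CPM at day 21, so each library of day 21 was above each of day 6. The ratios of summed reads were 26.0 (4.32 to 1060), 12.5 (4.52 to 47.8) and 14.2 (6.27 to 40.0), and were past both thresholds in the fit.

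These calls for PTX3 rested on few reads: that of day 6 was lost without replicate 1 (3.86) or replicate 2 (4.06), against a fitted 4.29 (SE 1.07), and was 5.99 without replicate 3. Those of days 15 and 21 were lost without replicate 1, at 4.01 and 4.15, against 3.53 (SE 0.79) and 3.70 (SE 0.70). After withdrawal the ratio was 5.06 (1.71 to 20.3) at day 6, 4.37 (1.29 to 23.1) at day 15 and 1.81 (0.387 to 11.2) at day 30. At day 15 after withdrawal, 13 of the 19 reads were in replicate 2, a library of high mitochondrial share. There the log2 fold change of 2.13 (SE 0.97) was 0.98 without that replicate. It was 0.32 without all such libraries, a fit that left replicate 1 as the only control of that time. At day 30 it turned from 0.77 to -0.44 without replicate 1. None was past both thresholds, and the groups overlapped, with 0.601, 0.696 and 0.232 CPM at day 6 after withdrawal against 0.258, 0.0864 and 0.0429 CPM.

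**Figure D2:**
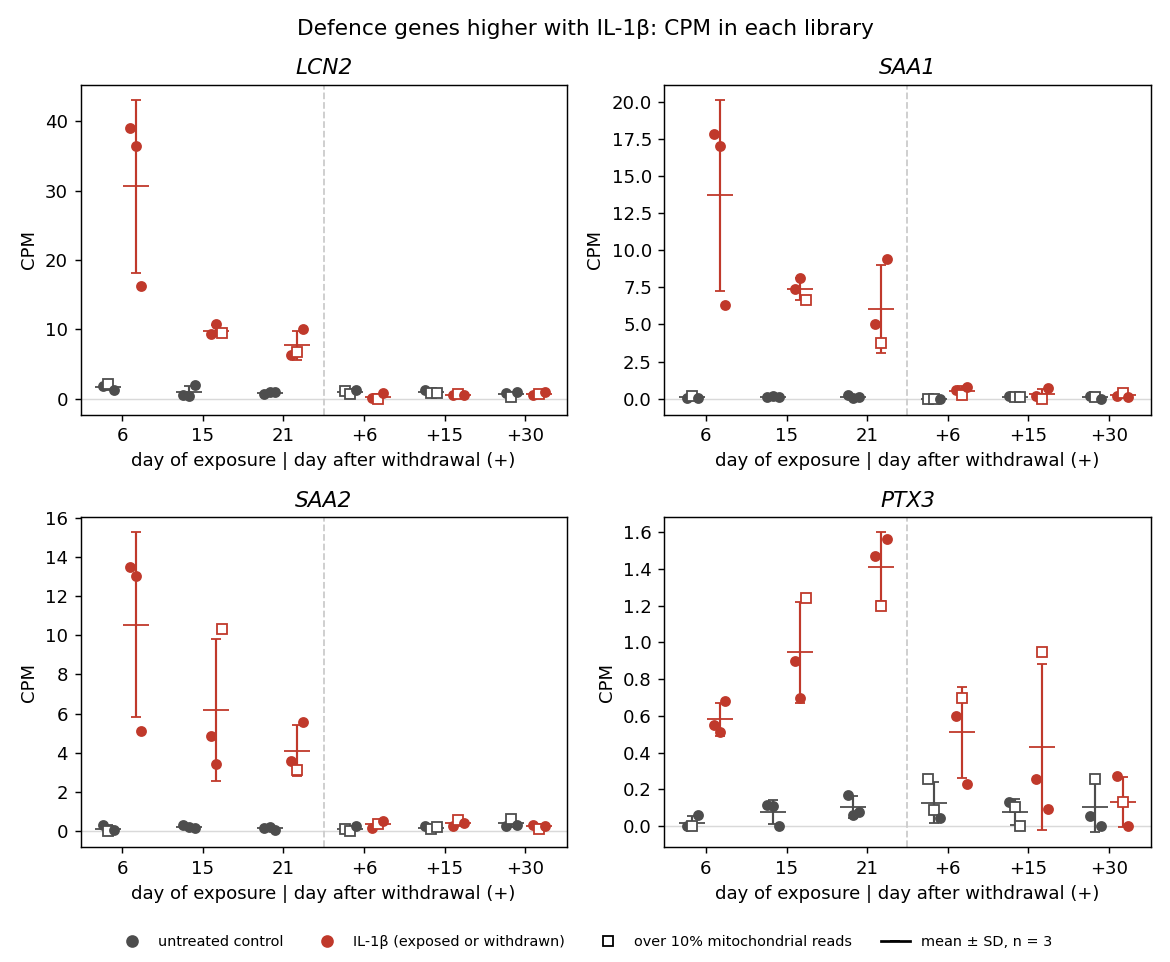
CPM of LCN2, SAA1, SAA2 and PTX3 in each of the 36 libraries, by day of exposure and day after withdrawal, each panel on its own linear scale; grey is untreated, red is IL-1β, open squares are libraries with over 10% mitochondrial reads, and bars are the mean ± SD of 3 libraries. The red libraries of days 6, 15 and 21 lay above all controls of their time in each panel, LCN2 was highest at day 6 (16.3 to 39.1 CPM) and PTX3 at day 21 (1.2 to 1.56 CPM).

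PI3 and ORM1 showed almost nothing. PI3 (ENSG00000124102, plus strand, chr20:43803543-43805185 in GRCh37) encodes elafin, an elastase inhibitor and close relative of SLPI that lies 75694 bases from it. It had 0 reads in all 18 control libraries, 4, 5 and 1 reads in the exposed libraries of day 6 (0.276, 0.365 and 0.0487 CPM), and 1 read in 1 library of day 21. The exposed mean of day 6 was 1.09 times a floor of 3 counts per library. As 1 exposed library was itself under that floor, this is no bound on the fold. It was at 0 in every other library, where it was not detectable at this depth.

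ORM1 (ENSG00000229314, plus strand, chr9:117085378-117088759 in GRCh37) encodes orosomucoid 1, a plasma acute phase protein of the liver. It was at the floor in all 12 groups, with at most 3 reads in any library, and no fold is given. Its transcripts share 43.8% of their 50-base stretches with its neighbour ORM2, which had 13 reads over the 36 libraries. SAA4 had 3 reads in all, and the read-through gene SAA2-SAA4 had 0.

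**Figure D3:**
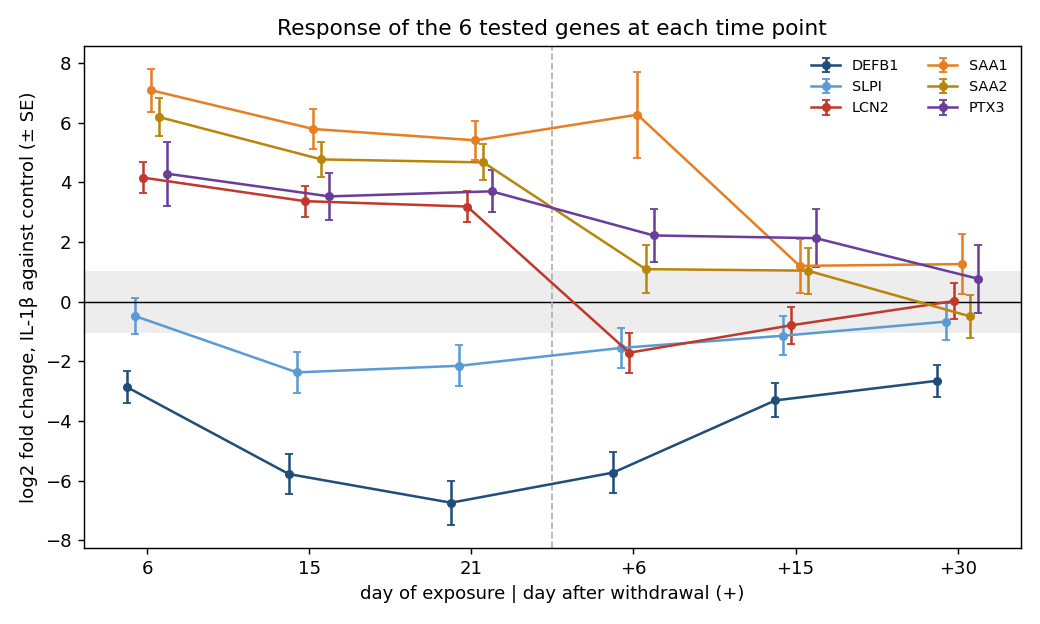
Fitted log2 fold change of IL-1β against the untreated control for the 6 tested genes, with SE, at days 6, 15 and 21 of exposure and days 6, 15 and 30 after withdrawal; the grey band marks changes of less than 2-fold. DEFB1 was at -2.65 or lower throughout, while LCN2 went from 4.16 at day 6 to 0.02 at day 30 after withdrawal.

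By their fitted values, the loss of DEFB1 and the rise of the induced genes had different courses. From day 6 to day 21 the response of DEFB1 went further from 0 by -3.88 (SE 0.92), whereas that of LCN2 changed by -0.97 (SE 0.71), of SAA1 by -1.68 (SE 1.18), of SAA2 by -1.52 (SE 1.02) and of PTX3 by -0.59 (SE 1.22), each within 2 SE of 0. The day 21 value of DEFB1 rests on 4, 0 and 5 reads in the exposed libraries, so the size of its changes to and from that day is uncertain. Between day 21 of exposure and day 30 after withdrawal, the response of LCN2 dropped by 3.17 (SE 0.79), of SAA1 by 4.16 (SE 1.48) and of SAA2 by 5.16 (SE 0.96), to within 2 SE of 0. That of PTX3 dropped by 2.93 (SE 1.59), a difference that is itself within 2 SE of 0. Over the same span DEFB1 regained 4.10 and remained at -2.65 (SE 0.54). The response of SLPI, the other lowered gene, changed by -1.67 (SE 0.91) from day 6 to day 21. It came back by 1.49 (SE 0.92) by day 30 after withdrawal, and each of these changes was within 2 SE of 0. Differences between genes were not tested.

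Inside a library, DEFB1 and LCN2 can be read against each other per exonic base. Both were chosen with these contrasts in view, so the fall of this share with IL-1β follows from the choice and is a description. DEFB1 made up 97.8% to 99.7% of the summed DEFB1 and LCN2 reads per kb in the 18 controls. With IL-1β it made up 36% to 43.3% at day 6, 4.47% to 21.6% at day 15 and 0% to 12.9% at day 21. At day 6 after withdrawal it was at 81.0% and 82.1% in 2 libraries, from 2 and 27 reads, and the other library had 0 reads of both. It was at 88.9% to 96.5% at day 15 and at 95.9% to 96.6% at day 30, still below every control. The share says little of the level of DEFB1, whose mean at day 30 after withdrawal was 16.0% of control.

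**Figure D4:**
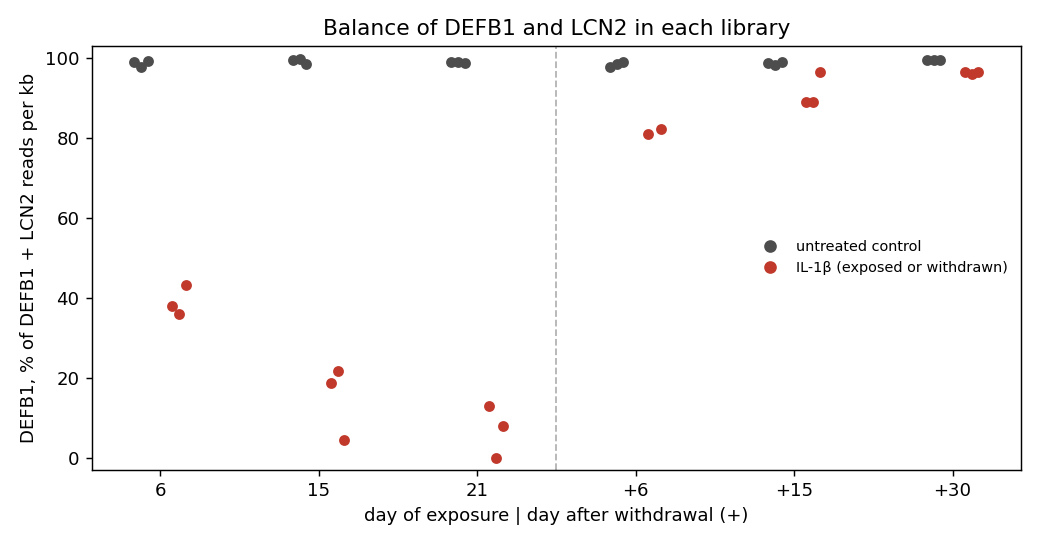
DEFB1 as a percentage of DEFB1 plus LCN2 reads per kb of exon in each library, by day of exposure and day after withdrawal; grey is untreated and red is IL-1β, and 1 library at day 6 after withdrawal with 0 reads of both is left out. Controls sat at 97.8% to 99.7%, and red libraries reached their lowest share, 0% to 12.9%, at day 21. Both genes were chosen with these contrasts in view, so the fall is a description.

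Untreated cells of the 6 collections were compared with each other, a test that did not serve to choose the genes. With edgeR's quasi-likelihood test, 0 of the 6 tested genes differed among the 6 control groups at an adjusted p under 0.05 (0.00521% of all genes did), and 0 had an unadjusted p under 0.05, also by DESeq2. Between controls of day 30 after withdrawal and of day 6, 0 of 6 were past both thresholds (0.0104% of all genes were), and 1 had an unadjusted p under 0.05 by each tool. This was LCN2, with a log2 fold change of -1.26 (SE 0.57), an unadjusted p of 0.0351 in edgeR and of 0.0175 in DESeq2, and an adjusted p of 1 in both. For DEFB1 the same difference was -0.24 (SE 0.49, adjusted p = 1 in edgeR). Its control mean was 32.0 CPM at day 6, 17.6 CPM at day 21 and 27.0 CPM at day 30 after withdrawal. The lack of a call thus does not show that the controls were level.

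The change in these genes went along with a fall in genes listed as epithelial markers of A549. Of the 6 tested, 4 fell at day 6, 5 at day 15, 5 at day 21 and 2 at day 6 after withdrawal, and 0 were past both thresholds later. The reductase AKR1B10 was among those at days 6, 15 and 21, and the reductase AKR1C1 at days 15 and 21. Of all tested genes, 1.25%, 2.3%, 2.06% and 0.725% were lower past both at these times, and 0.36% and 0.464% later. The low EPCAM was past both at no time point, with a log2 fold change of -1.13 (SE 0.51) at day 21. The median log2 fold change of the 6 markers was -0.73 and -0.56 at days 15 and 30 after withdrawal, and its difference from that of DEFB1 was not tested. KRT8, for example, had log2 fold changes of -2.09 (SE 0.31) at day 6 and -0.62 (SE 0.30) at day 30 after withdrawal. The summed level of the 9 markers ran from 4540 to 9960 CPM in control libraries. It ran from 1490 to 6980 CPM over the libraries of exposed and withdrawn cells together. The part of this in the loss of DEFB1 was not tested. Fewer cells making a transcript and less of it per cell cannot be told apart in these bulk libraries.

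Among 31 antimicrobial peptides and proteins, 6 were tested beside DEFB1, LCN2 and SLPI. This list and the later ones were written with earlier results of these data known, so their p-values are descriptions. CCL20, a chemokine with defensin-like activity against bacteria, rose at all 6 time points, from 0.262 ± 0.0853 to 38.5 ± 6.27 CPM at day 6 (SD, n = 3; log2 fold change 7.20, SE 0.49, adjusted p = 4.32e-11 in edgeR's quasi-likelihood test). At day 30 after withdrawal it was still higher, at 1.38 ± 0.682 against 0.282 ± 0.0911 CPM (log2 fold change 2.34, SE 0.51, adjusted p = 0.0143). DMBT1, a mucosal scavenger protein that clumps bacteria, rose at day 6 (2.58, SE 0.66) and at days 6, 15 and 30 after withdrawal (2.73, 2.31 and 2.90). At days 15 and 21 its values were 1.26 (SE 0.55) and 1.86 (SE 0.59), not past both. The other 4 were past both at no time point, and none fell, so 2 of these 6 rose at day 6 and at each time after withdrawal. Of all tested genes, 1.52% were higher past both at day 6, and 1.08%, 0.594% and 0.433% at days 6, 15 and 30 after withdrawal. The median log2 fold change of the 6 was 0.63, 0.29 and 0.08 at days 6, 15 and 21 and 0.36, 0.15 and 0.54 at days 6, 15 and 30 after withdrawal, against -0.02 to 0.02 over all genes tested.

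Other protease inhibitors were set beside SLPI. Of 17 WAP domain genes, the family of SLPI and PI3, 3 others were tested and 0 were past both thresholds at any time point in edgeR's test. Of 4 other airway antiproteases tested, 0 were lower and 1 higher past both thresholds, SERPINA1, which encodes α1-antitrypsin, the main inhibitor of neutrophil elastase in the lung. SERPINA1 was at 0.332 ± 0.275 CPM in controls and 2.76 ± 0.873 CPM with IL-1β at day 6 (SD, n = 3; log2 fold change 3.13, SE 0.54). It was at 0.208 ± 0.154 and 3.82 ± 0.453 CPM at day 21 (4.26, SE 0.55), was still higher at day 6 after withdrawal (2.43, SE 0.61) and was not past both later. At days 6 and 21 and at day 6 after withdrawal, 1.52%, 2.19% and 1.08% of all tested genes were higher past both. SERPINB1, which also inhibits neutrophil elastase and was named after its values were seen, was lower by less than 2-fold at day 15 (-0.81, adjusted p = 0.0329 in edgeR's test) and day 21 (-0.84, adjusted p = 0.0248).

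Of the 22 positive acute phase proteins, 7 were tested beside LCN2, SAA1, SAA2 and PTX3. SERPINA1 and VNN1 rose at days 6, 15 and 21, SERPINA1 alone at day 6 after withdrawal, and 0 at days 15 and 30 after it. Of all tested genes, 1.52%, 1.94% and 2.19% were higher past both at days 6, 15 and 21. At days 6, 15 and 30 after withdrawal, 1.08%, 0.594% and 0.433% were. The median log2 fold change of the 7 was 0.77 at day 6 and -0.33 at day 21. Of 3 tested negative acute phase proteins, which fall in the blood in inflammation, AGT fell at day 15 (-4.65, SE 1.10), and 0 were past both thresholds at the other 5 time points. At day 15, 2.3% of all tested genes were lower past both. AGT was low, with control means of 0.721 CPM at day 6 and 0.474 CPM at day 21.

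All 14 listed regulators of the acute phase response were tested. IL6, the main inducer of the response in the liver, rose at all 6 time points, from 2.34 ± 1.14 to 115 ± 31.3 CPM at day 6 (log2 fold change 5.64, SE 0.60) and from 2.77 ± 2.26 to 16.9 ± 8.59 CPM at day 30 after withdrawal (2.74, SE 0.56). NFKBIZ, a nuclear partner of NF-κB that LCN2 is known to need, rose at days 6, 15 and 21 (2.10, 2.37 and 1.84, SE 0.24 to 0.25). After withdrawal it was at -0.42, -0.15 and -0.14. HNF4A, a transcription factor of liver and gut epithelium, fell at all 6 time points. It went from 26.4 ± 1.65 to 5.85 ± 0.272 CPM at day 6 and was at 4.15 ± 1.16 against 18.3 ± 8.72 CPM at day 30 after withdrawal (-2.14, SE 0.42). The list's median stayed between -0.03 and 0.34. Of the genes in all these lists, 6 passed both 30 days after withdrawal, CCL20, DMBT1, IL6, HNF4A and TLR4 among them, and without replicate 1 the count was 0. With all libraries, 0.433% of all tested genes were higher and 0.464% lower past both at that time.

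The genes most like DEFB1 and LCN2 were found by Pearson's r of the mean log2 CPM over the 12 groups, among 15366 genes with a mean of at least 1 CPM. Like DEFB1 were SLC7A7 (r = 0.99), SCD, CPLX2, TSPAN33 and NTRK3 (each 0.98), and SLPI was at 0.94. Like LCN2 were NFKBIZ, CXCL1, ZC3H12A and LURAP1L (each 0.95) and SLC11A2 (0.94), with SAA1 at 0.86, SAA2 at 0.87 and PTX3 at 0.59. DEFB1 had an r of -0.25 with LCN2, -0.59 with SAA2, -0.66 with SAA1 and -0.90 with PTX3. The 12 points are group means of 1 cell line, on which the genes were also chosen, so these are descriptions.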

How the data were processed

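RNA from 36 cultures of A549 was sequenced as single-end reads on an Illumina HiSeq from KAPA Stranded mRNA-Seq libraries. Per the labels and the submitters' processing notes, the authors used bcl2fastq 2.17, TopHat2 2.0.14 with Bowtie2 2.2.5 on GRCh37, and HTSeq 0.6.1. The deposited values are raw counts per Ensembl gene, not normalized. The strand setting and annotation release are not given in the sources used here. Each table ends in 5 summary lines that name no gene. They were left out of library sizes and tests, and reads on no gene or ambiguous took 12.6% to 21.8% of all counts.

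Depth was 9116032 to 23570026 counts per library, which limits genes of few reads. Groups and replicates came from the labels. Counts were filtered with filterByExpr, scaled by TMM and fitted with edgeR 4.0.16 (quasi-likelihood, R 4.3.3) over all 36 libraries with 12 groups as terms (24 residual degrees of freedom), and p-values were adjusted by Benjamini-Hochberg over 19180 genes. Ratios of summed counts have exact (conditional binomial) 95% intervals for counting error only. Symbols and exon lengths were matched to GENCODE v44lift37 for 55665 of 63677 genes, and upstream sequences came from RefSeq. The scripts were tested on simulated counts.

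The 8 genes and the lists were chosen with earlier results of these data known. Named genes are all 8, then list genes past both thresholds in 1 direction at 2 or more time points with at least 1 CPM at day 21, at most 6 per list, and the 5 genes most like DEFB1 and LCN2. A list gene that meets this rule is not reported here. VNN1, AGT, PRTN3, TLR4 and SERPINB1 fall outside this rule and were chosen after their values were seen. Alternatives were DESeq2 1.42.0 (size factors, Wald test), total counts, no filter, a filter of 10 counts, the likelihood ratio test, separate fits, replicate blocks, the mitochondrial share as a covariate, and leaving out replicates or libraries of high mitochondrial share. No 2 libraries of a group differed by less than sampling noise (chi-square per degree of freedom of at least 3.46 over 36 pairs).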

Additional observations from a re-analysis of the deposited data

Results flagged for a closer look

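LCN2 was higher with IL-1β in all 3 libraries than in all 3 controls at days 6, 15 and 21, and lower in all 3 at day 15 after withdrawal, where its log2 fold change was -0.79 (SE 0.62). The turn in direction is what drew attention to it, and the difference between these time points was not tested. The levels at day 15 after withdrawal were 0.466 to 0.655 CPM against 0.813 to 1.23 CPM, from 8 to 19 reads a library. Leaving out the libraries of high mitochondrial share gave a log2 fold change of -1.25, with replicate 1 as the only control left.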

How the results depend on the processing

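Counts of the 6 tested genes past both thresholds were read under each alternative. Leaving out 1 replicate, the count ran from 3 to 5 at day 6, where it was 5. In the same way it ran from 1 to 3 at day 6 after withdrawal (2 with all libraries), from 0 to 2 at day 15 after it (1) and from 0 to 1 at day 30 after it (1). Separate fits of each time point gave 0 at days 6, 15 and 30 after withdrawal. Without the libraries of high mitochondrial share, replicate 3 was the only control at day 6 after withdrawal and replicate 1 at day 15 after it. Counts from that fit at those times are not given. For the wider lists, leaving out a replicate gave 5 to 8 at day 21 (8 with all libraries) and 0 to 4 at day 30 after withdrawal (6). Of 8 genes in 12 groups, 34 combinations were at the floor of 3 counts, and 16 had 0 counts in every library. Of 578 values of single genes recomputed under alternatives, 0 reversed a call and 20 moved by over 1 SD. With at least 10 counts in every sample, none of the 8 genes remained, so that filter gave no value. The causes were not tested. Genes under about 1 CPM, PTX3 among them, are limited by depth.

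Same-numbered IL-1β and control libraries had correlations of deviations from -0.336 to 0.718, and 14 of 18 were over 0.1. All 3 pairs were at day 21 and at day 30 after withdrawal but not at the other 4 time points, so whether the numbers pair the libraries is unsettled. With the replicate block in the joint fit, 5, 6 and 6 were past both at days 6, 15 and 21 and 2, 1 and 1 after withdrawal, and SLPI at day 21 was added. With the block in separate fits, 2 were past both at day 15 (calls of LCN2, SLPI, SAA2 and PTX3 were lost), 1 at day 6 after withdrawal and 0 at day 30 after it.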

Other observations

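Of the neutrophil proteases that SLPI and elafin inhibit and their kin, 3 of 4 were tested in these cells. PRTN3, proteinase 3, was lower at day 21 (log2 fold change -4.78, SE 1.28, adjusted p = 0.0181 in edgeR's quasi-likelihood test). It was at 0.686 ± 0.253 CPM in controls and 0.0181 ± 0.0314 CPM with IL-1β at that time. The exposed mean is below the single-library floor of 0.119 to 0.387 CPM, so the size of the change is uncertain. PRTN3, like TLR4 below, was named after its values were seen. At day 21, 2.06% of all tested genes were lower past both. The other 2 proteases were past both thresholds at no time point. Of 9 receptors for these proteins, 4 were tested. TLR4, the receptor for bacterial lipopolysaccharide, was past both thresholds at days 6, 15 and 30 after withdrawal (2.28, 2.54 and 2.58, SE 0.58, 0.60 and 0.63), and at day 21 of exposure it was at 1.63 (SE 0.58, adjusted p = 0.111). The difference between these times was not tested. At days 6, 15 and 30 after withdrawal, 1.08%, 0.594% and 0.433% of all tested genes were higher past both.

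The other marker lists changed little. Of 2 tested leukocyte markers, 0 were past both thresholds at any time, nor was the 1 tested hepatocyte marker, and 0 of 3 matched endothelial markers had enough counts. The 1 tested fibroblast marker, COL1A1, rose at day 6 (1.02, SE 0.30) and day 21 (1.24, SE 0.29), from a median of 1.29 CPM in controls.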
